A study of Homo sapiens with 2 samples.

Results

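The genes described are 51 that encode enzymes and transporters of glycolysis, the pentose phosphate pathway and the tricarboxylic acid (TCA) cycle, out of 24462 gene symbols counted. They were chosen by name, and all 51 stand on a single row of each count table. They were grouped as 21 genes of glucose uptake, glycolysis and lactate export, 7 genes of pyruvate entry into the cycle, 6 pentose phosphate genes and 17 genes of the TCA cycle with the malic enzymes. RNA sequencing compared neural precursor cells (NPC) derived from H9 human embryonic stem cells by co-culture with a feeder layer of MS5 cells, against undifferentiated H9 human embryonic stem cells (hESC). MS5 cells are mouse stromal cells that support neural differentiation, and H9 is an established human pluripotent line. The labels give no treatment, genotype change or time for either group, and they do not say how feeder cells were kept out of the NPC sample. Each group had 1 library. The groups could therefore not be tested against each other, and all intervals below cover counting error only.

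Glycolysis splits glucose into pyruvate in the cytosol and yields ATP without oxygen, and lactate dehydrogenase turns pyruvate into lactate. In mitochondria, pyruvate dehydrogenase converts pyruvate to acetyl-CoA, which the TCA cycle oxidises, and the pentose phosphate pathway branches off early to make NADPH and ribose phosphate. Many steps are run by several isozymes from separate genes with different tissue preferences. Pluripotent cells are known for a high rate of glycolysis, and neurons for reliance on oxidative metabolism.

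The NPC library held 24065750 counted reads and the hESC library 19686728. Levels are given as CPM, read counts scaled to library size with edgeR's TMM (trimmed mean of M) factors. The NPC over hESC ratio of a gene was called if the near end of its 95% counting interval was 2-fold or more from 1 and the gene reached 5 CPM in either library. The labels held up against marker genes. All 6 pluripotency markers were lower in the NPC library, with a summed level of 33.1 CPM, against 7276 CPM in the hESC library. Of 7 neural progenitor markers, 5 were higher in NPC and none was lower, with HES5 under the filter in both libraries and NES not called. Stroma markers summed to 1762 CPM in the NPC library, against 828 CPM in the hESC library, with 5 of 8 higher and 1 lower. None was at 0 reads in either library. The sum hides wide differences between these markers. COL3A1 had 7837 reads in NPC and 11 in hESC, and DCN had 303 in NPC and 4 in hESC. LUM, under the filter, had 91 in NPC and 1 in hESC. THY1 was the marker called lower, with 639 reads in NPC and 4635 in hESC, and COL1A1 was not called. The part of feeder or other stromal cells in the differences below was not tested. Neuron markers summed to 1562 CPM in NPC and 350 CPM in hESC (4 of 7 higher, 1 lower). Much of the NPC sum came from MAP2, with 861 CPM in NPC and 13.7 CPM in hESC. RBFOX3 was the neuron marker called lower, with 2.17 CPM in NPC and 22.8 CPM in hESC. TUBB3 and SYT1 were not called. Of 4 astroglia markers S100B was higher and the other 3 were under the filter. In bulk RNA, fewer cells of a type and less RNA per cell cannot be told apart. Library batch and cell state cannot be told apart either.

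Most genes of glycolysis were called lower in NPC, as were up to 50% of the genes in each of the other groups. All 51 genes passed the filter, 50 of them in both libraries. Of these, 31 were called lower and 0 higher in NPC, against 19.8% called lower and 19.6% called higher among the 13535 genes measured. Glycolysis and its transporters had 18 of 21 genes lower and a median log2 ratio of -2.37, NPC over hESC. The TCA group had 7 of 17 lower with a median of -0.93, pyruvate entry had 3 of 7 with -1.02 and the pentose phosphate group 3 of 6 with -1.02. The median over all measured genes was -0.09. No test between the pathways was made. The glycolysis genes took 0.513% of the counted reads in the NPC library, against 1.64% in the hESC library. For the TCA group these shares were 0.119% in NPC and 0.206% in hESC.

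The calls depend in part on scaling. With library totals in place of TMM, which adds 0.36 to every log2 ratio, 23 genes were lower and 1 higher, against 13.2% lower and 27.0% higher among all measured genes, whose median was 0.31. Of the glycolysis group 16 were then lower, of pyruvate entry 3, of the pentose phosphate group 1 and of the TCA group 3. NPC over hESC ratios in the text are relative to TMM.

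**Figure D1:**
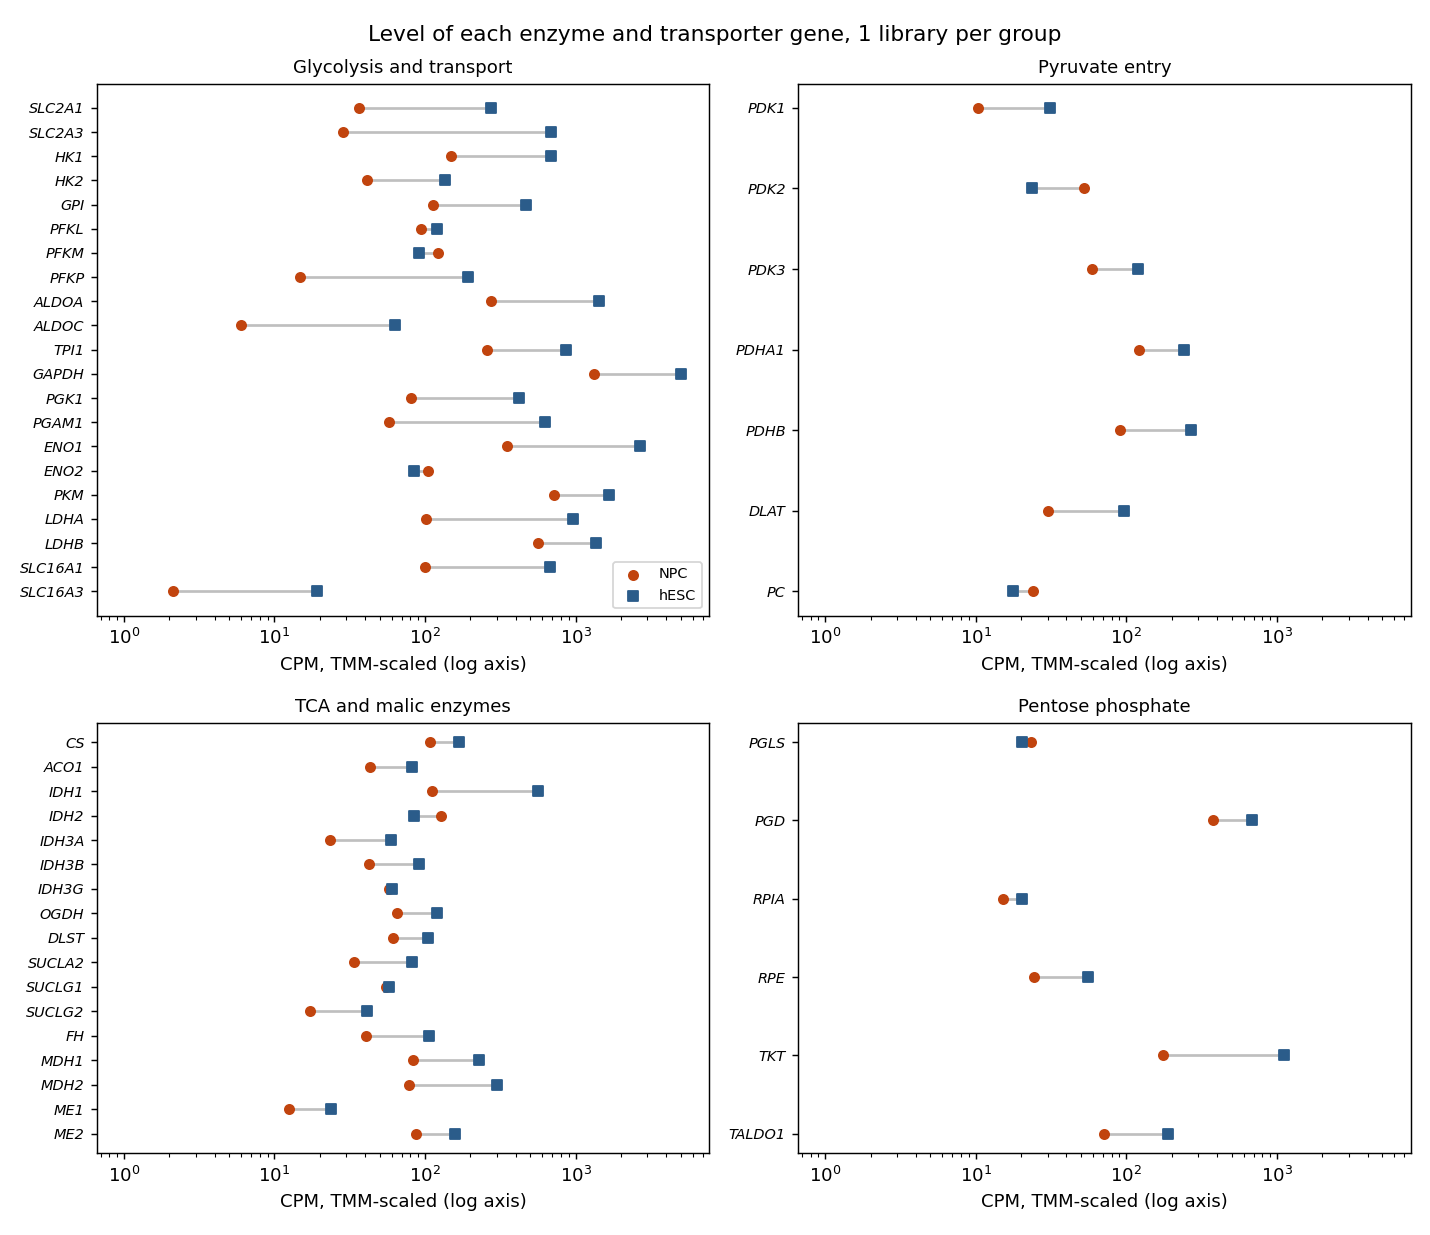
Level of each of the 51 genes in CPM (log axis) in the NPC library (circles) and the hESC library (squares), grouped by pathway, with a line joining the pair of values. NPC circles lie left of the hESC squares for 45 genes and right of them for 6, which are PFKM, ENO2, PDK2, PC, PGLS and IDH2.

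**Figure D2:**
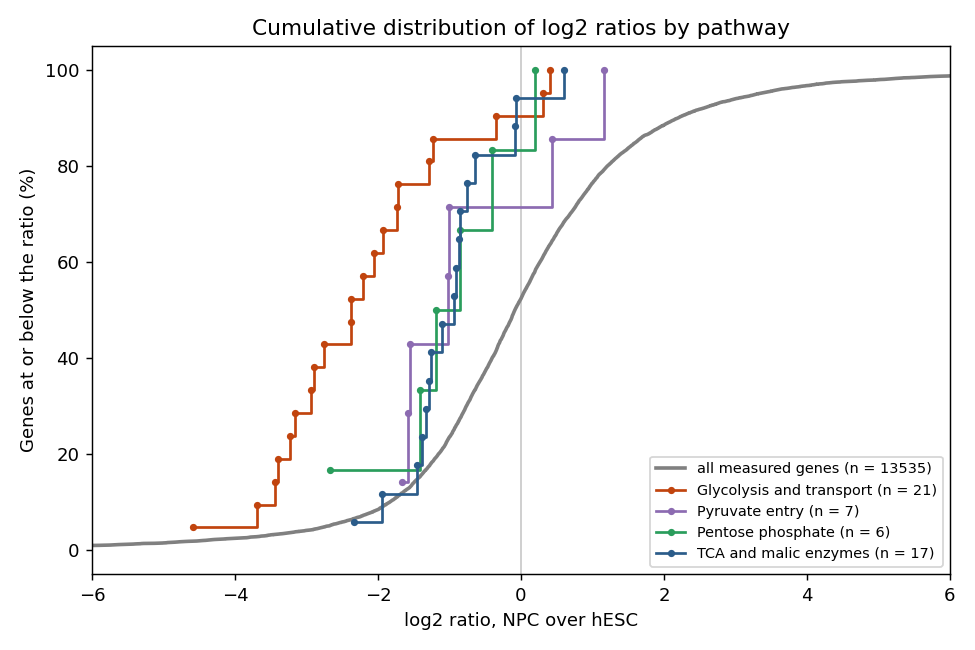
Cumulative share of genes (percent) at or below a given log2 ratio, NPC over hESC, for each pathway (coloured steps, 1 point per gene) and for all 13535 measured genes (grey). The glycolysis curve has the lowest median, -2.37, against -0.93 for the TCA group and -0.09 for all measured genes, but is not furthest left along its whole length. The horizontal axis ends at 6 on either side of 0.

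Glucose and lactate transporters were all 4 lower in NPC. SLC2A3, the high-affinity glucose transporter typical of neurons and early embryos, had 772 reads (28.4 CPM) in NPC and 11852 reads (682 CPM) in hESC. It had the lowest ratio of the 51 genes, 24-fold lower (22.3 to 25.9). SLC2A1, the widely expressed glucose transporter, had 36.6 CPM in NPC and 274 CPM in hESC, 7.47-fold lower (6.98 to 8.01). SLC2A3 was therefore 3.21-fold (2.91 to 3.55) further down than SLC2A1, and the order of the pair differed between the libraries. Per transcript length, SLC2A3 made up 42.1% of the pair's level in NPC and 70.0% in hESC. SLC16A1, a proton-linked carrier of lactate and pyruvate, had 99.5 CPM in NPC and 672 CPM in hESC, 6.75-fold lower (6.47 to 7.04). SLC16A3, the lactate exporter of glycolytic tissues, had 58 reads (2.13 CPM) in NPC and 335 reads (19.3 CPM) in hESC. Its fold of 8.97 lower (6.82 to 12.2) rests on the fewest reads of any of the 51 genes, and its exons overlap those of CSNK1D on the opposite strand (2473 reads in NPC, 1056 in hESC).

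The hexokinases, which trap glucose in the cell, were both lower. HK1, the form of brain and most tissues, had 148 CPM in NPC and 687 CPM in hESC, 4.63-fold lower (4.47 to 4.80). HK2, the inducible form of muscle and many tumours, had 40.9 CPM in NPC and 136 CPM in hESC, 3.32-fold lower (3.09 to 3.57). HK1 was the main form in both libraries, at 85.3% of the pair per length in NPC and 89.0% in hESC. GPI, which turns glucose phosphate into fructose phosphate, had 113 CPM in NPC and 470.4 CPM in hESC, 4.16-fold lower (3.99 to 4.34).

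Phosphofructokinase, the committed step of glycolysis, differed in makeup more than in total. PFKP, the platelet form, had 403 reads (14.8 CPM) in NPC and 3342 reads (192 CPM) in hESC, 13.0-fold lower (11.7 to 14.4). PFKL, the liver form, had 94.5 CPM in NPC and 121 CPM in hESC and was not called, with a log2 ratio of -0.35 that turned just above 0 with library totals. PFKM, the muscle form, had 122 CPM in NPC and 91.5 CPM in hESC and was not called either, at 1.33 times the hESC level (1.25 to 1.41). The fold of PFKP lay 17.2-fold (15.3 to 19.4) below that of PFKM, the widest gap among the 19 isozyme or subunit pairs compared. Per length, PFKP made up 7.37% of the 3 forms in NPC and 50.9% in hESC, and PFKM 49.8% in NPC and 19.9% in hESC. Summed over the 3 genes, reads were 231 CPM in NPC and 404 CPM in hESC, 1.75-fold lower (1.69 to 1.81). PFKM shares 628 exonic bases with SENP1 on the opposite strand (1157 reads in NPC, 947 in hESC).

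The aldolases were both lower. ALDOA, the main form, had 275 CPM in NPC and 1427 CPM in hESC, 5.18-fold lower (5.05 to 5.32). ALDOC, the brain form, had 163 reads (5.99 CPM) in NPC and 1099 reads (63.2 CPM) in hESC, 10.5-fold lower (8.94 to 12.5). ALDOC was a minor form in both libraries, with 1.73% of the pair per length in NPC and 3.46% in hESC.

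Genes of the later steps that have a single main form were all lower. TPI1, which interconverts the triose phosphates, had 260 CPM in NPC and 857 CPM in hESC, 3.30-fold lower (3.21 to 3.39). GAPDH, which oxidises triose phosphate and is often used as a reference gene, had 35875 reads (1319 CPM) in NPC and 87511 reads (5034 CPM) in hESC. It was 3.82-fold lower (3.77 to 3.86), with 62 annotated pseudogenes that could share its reads. PGK1, the first ATP-yielding kinase of the pathway, had 80.6 CPM in NPC and 421 CPM in hESC, 5.22-fold lower (4.98 to 5.48). PGAM1, a phosphoglycerate mutase, stood out among these with 57.6 CPM in NPC and 623 CPM in hESC, 10.8-fold lower (10.3 to 11.4). PKM, the pyruvate kinase gene, had 713 CPM in NPC and 1668 CPM in hESC and was the least reduced of the genes called lower in the glycolysis group, at 2.34-fold (2.30 to 2.38). PKM and LDHB were not called with library totals. The counts are per gene and do not separate the splice forms of PKM.

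The enolases differed in their ratios. ENO1, the form of most tissues, had 9547 reads (351 CPM) in NPC and 46648 reads (2684 CPM) in hESC, 7.65-fold lower (7.48 to 7.82). ENO2, neuron-specific enolase, had 2844 reads (105 CPM) in NPC and 1464 reads (84.2 CPM) in hESC, and was not called at 1.24 times the hESC level (1.16 to 1.32). Their ratios differed by 9.49-fold (8.88 to 10.1). ENO2 made up 19.8% of the pair per length in NPC and 2.54% in hESC. ENO1 remained the more abundant form in both libraries.

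The lactate dehydrogenases were both lower, LDHA by more. LDHA, the subunit that favours lactate formation, had 2778 reads (102 CPM) in NPC and 16664 reads (959 CPM) in hESC, 9.39-fold lower (9.02 to 9.77). LDHB, the heart and brain subunit, had 15353 reads (564 CPM) in NPC and 23911 reads (1376 CPM) in hESC, 2.44-fold lower (2.39 to 2.49). The fold of LDHA lay 3.85-fold (3.68 to 4.03) below that of LDHB. LDHA made up 10.3% of the pair per length in NPC and 30.7% in hESC, so LDHB was the more abundant form in both.

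The promoters of the enolase and lactate dehydrogenase pairs are shown as examples of pairs whose members differed in their ratios. They were picked after their values were seen. Each window runs from 250 bases before to 50 bases after the RefSeq start on the gene's own strand (GRCh38.p14). Capitals mark ACGTG and GCGTG on either strand, the core letters of the hypoxia response element; CACGTG, the E-box, contains ACGTG on both strands and counts as 1 stretch. LDHA lies at chr11:18394313-18394612 on the plus strand, LDHB at chr12:21657793-21658092 on the minus strand, ENO1 at chr1:8878637-8878936 on the minus strand and ENO2 at chr12:6914330-6914629 on the plus strand.
LDHA: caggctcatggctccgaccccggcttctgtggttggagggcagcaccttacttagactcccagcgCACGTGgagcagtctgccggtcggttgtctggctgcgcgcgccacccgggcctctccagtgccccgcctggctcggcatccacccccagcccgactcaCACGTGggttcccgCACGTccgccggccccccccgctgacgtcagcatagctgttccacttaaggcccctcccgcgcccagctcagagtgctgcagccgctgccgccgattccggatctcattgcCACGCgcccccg
LDHB: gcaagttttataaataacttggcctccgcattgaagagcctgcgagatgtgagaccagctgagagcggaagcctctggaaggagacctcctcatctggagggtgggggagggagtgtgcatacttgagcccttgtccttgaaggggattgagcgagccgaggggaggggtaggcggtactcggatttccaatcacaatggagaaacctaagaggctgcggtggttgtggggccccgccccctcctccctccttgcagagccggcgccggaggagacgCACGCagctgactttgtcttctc
ENO1: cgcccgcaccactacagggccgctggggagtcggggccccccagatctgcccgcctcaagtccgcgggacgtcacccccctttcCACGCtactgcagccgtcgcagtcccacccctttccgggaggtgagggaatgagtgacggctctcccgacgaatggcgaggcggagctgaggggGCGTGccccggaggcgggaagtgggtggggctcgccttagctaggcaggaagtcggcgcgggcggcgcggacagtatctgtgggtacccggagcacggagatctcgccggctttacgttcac
ENO2: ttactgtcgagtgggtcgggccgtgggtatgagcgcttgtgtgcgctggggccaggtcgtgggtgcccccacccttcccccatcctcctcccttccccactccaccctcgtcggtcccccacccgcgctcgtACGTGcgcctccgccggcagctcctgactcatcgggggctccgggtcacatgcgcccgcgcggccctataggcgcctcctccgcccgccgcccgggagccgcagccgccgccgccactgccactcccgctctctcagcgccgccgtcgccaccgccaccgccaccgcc
The LDHA window holds 4 capital stretches, ENO1 has 2, and LDHB and ENO2 have 1 each. The windows of PFKP and PFKM, the pair with the widest gap, hold 0 matches each, and so do those of PDK1 and PDK2. Promoter windows were at hand for 48 of the 51 genes. ACGTG or GCGTG was found in 13 of 19 glycolysis windows (68.4%), 5 of 7 pyruvate entry windows (71.4%), 2 of 6 pentose phosphate windows (33.3%), 10 of 16 TCA windows (62.5%) and 48.4% of all 27305 promoters in the table. Either motif was in 16 of 29 windows of genes called lower (55.2%) and in 14 of 19 windows of the others (73.7%). ACGTG alone was in 10 of 29 windows of genes called lower (34.5%) and in 5 of 19 of the others (26.3%). These shares were not tested against each other. GGGCGG, the GC box, was in 35 of 48 windows (72.9%) and in 44.6% of all promoters. A match is a description of letters in the window, and the RefSeq start need not be the start used in these cells.

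**Figure D3:**
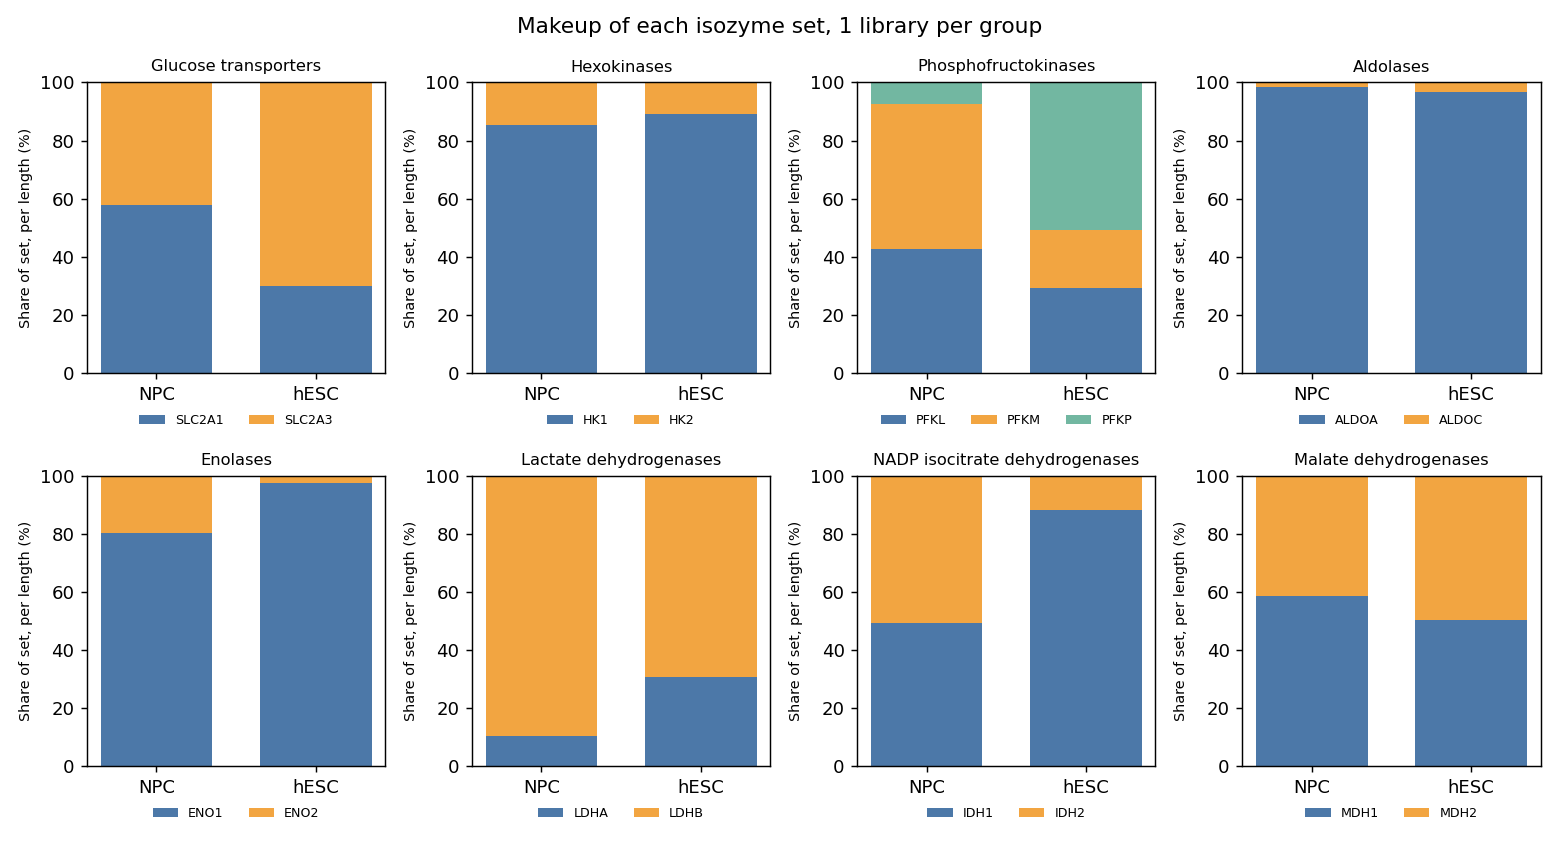
Share of each isozyme in its set (percent of the summed level per principal transcript length) in the NPC library (left bar) and the hESC library (right bar), 1 library each. PFKP is 7.37% of phosphofructokinase in NPC and 50.9% in hESC, ENO2 is 19.8% of enolase in NPC and 2.54% in hESC, and IDH1 is 49.2% of its pair in NPC and 88.2% in hESC.

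At the entry of pyruvate into the cycle, PDHB and DLAT of pyruvate dehydrogenase were lower and PDHA1 was just short of the call. The kinases that switch the enzyme off split. PDHA1, the catalytic alpha subunit, had 122 CPM in NPC and 243 CPM in hESC, a fold of 2.0 lower (1.91 to 2.09) that was not called. PDHB, the beta subunit, had 90.8 CPM in NPC and 267 CPM in hESC, 2.94-fold lower (2.80 to 3.09). DLAT, the acetyltransferase core, had 30.3 CPM in NPC and 95.8 CPM in hESC, 3.16-fold lower (2.91 to 3.44). PC, pyruvate carboxylase, which feeds oxaloacetate to the cycle, had 650 reads (23.9 CPM) in NPC and 306 reads (17.6 CPM) in hESC, and was not called at 1.36 times the hESC level (1.18 to 1.56).

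Among the kinases, PDK1, the hypoxia-inducible form, had 283 reads (10.4 CPM) in NPC and 543 reads (31.2 CPM) in hESC, 3.0-fold lower (2.60 to 3.48). PDK3 had 58.7 CPM in NPC and 119 CPM in hESC, a fold of 2.03 lower (1.90 to 2.17) that was not called. PDK2, a widely expressed form, had 1433 reads (52.7 CPM) in NPC and 410 reads (23.6 CPM) in hESC. Its ratio of 2.23 (2.0 to 2.50) was the highest of the 51 genes and fell just short of the call, which it passed with library totals, upper-quartile factors or the length trend removed. PDK2 shares 2113 exonic bases with SAMD14 on the opposite strand, which had 1043 reads in NPC and 119 in hESC, and without a stated strand setting their reads cannot be told apart. The fold of PDK1 lay 6.69-fold (5.59 to 8.02) below that of PDK2, and that of PDK3 4.53-fold (3.99 to 5.15) below it.

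In the pentose phosphate pathway, the non-oxidative branch held all genes called lower. TKT, transketolase, had 4746 reads (174 CPM) in NPC and 19308 reads (1111 CPM) in hESC, 6.37-fold lower (6.17 to 6.57). TALDO1, transaldolase, had 70.9 CPM in NPC and 188 CPM in hESC, 2.65-fold lower (2.50 to 2.81). RPE, ribulose phosphate epimerase, had 24.4 CPM in NPC and 55.7 CPM in hESC, 2.28-fold lower (2.07 to 2.53). TALDO1 and RPE were not called with library totals or with the trend with transcript length removed, so that TKT alone of the group was then lower. RPIA, ribose phosphate isomerase, had 15.1 CPM in NPC and 20.1 CPM in hESC and was not called. In the oxidative branch, PGD, which makes NADPH, had 376 CPM in NPC and 681 CPM in hESC and was not called at 1.81-fold lower (1.76 to 1.86). PGLS, the lactonase before it, had 23.2 CPM in NPC and 20.2 CPM in hESC, and was not called.

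In the TCA cycle, the isocitrate dehydrogenases differed most from each other. IDH1, the cytosolic NADP-linked form, had 3041 reads (112 CPM) in NPC and 9852 reads (567 CPM) in hESC, 5.07-fold lower (4.87 to 5.28). IDH2, its mitochondrial counterpart, had 3461 reads (127 CPM) in NPC and 1461 reads (84.0 CPM) in hESC, and was not called at 1.51 times the hESC level (1.42 to 1.61). The fold of IDH1 lay 7.67-fold (7.13 to 8.26) below that of IDH2. Per length IDH1 was 49.2% of the pair in NPC and 88.2% in hESC. The NAD-linked enzyme of the cycle has 3 kinds of subunit: the catalytic IDH3A was 2.51-fold lower (2.27 to 2.78), with 23.5 CPM in NPC and 59.0 CPM in hESC. IDH3B had 42.4 CPM in NPC and 91.5 CPM in hESC and missed the call at 2.16-fold lower (2.0 to 2.33), which it passed with DESeq2 size factors. IDH3G had 57.4 CPM in NPC and 60.1 CPM in hESC, a log2 ratio of -0.07 that was above 0 with library totals or the length trend removed. IDH3G shares exonic bases with SSR4 and IDH3A with ACSBG1, both on the opposite strand.

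The other genes of the TCA group were called lower or were not called. All had smaller folds than IDH1, but FH, MDH1 and MDH2 were further down than IDH3A. CS, citrate synthase, which starts the cycle, had 108 CPM in NPC and 168 CPM in hESC, 1.55-fold lower (1.48 to 1.64) and not called. OGDH and DLST, subunits of the oxoglutarate dehydrogenase complex, had folds of 1.82 lower (1.71 to 1.94) and 1.69 lower (1.58 to 1.81) and were not called. Of succinyl-CoA ligase, the shared alpha subunit gene SUCLG1 had 54.8 CPM in NPC and 58.0 CPM in hESC, a log2 ratio of -0.08 that was above 0 with library totals or the length trend removed. Its alternative beta subunit genes were both lower to a like degree, SUCLA2 (ATP-forming) by 2.43-fold (2.24 to 2.64) and SUCLG2 (GTP-forming) by 2.39-fold (2.13 to 2.70). The log2 difference between the beta subunits was -0.02, with an interval of -0.23 to 0.18. FH, fumarase, had 40.7 CPM in NPC and 107 CPM in hESC, 2.62-fold lower (2.43 to 2.83). IDH3A, SUCLA2, SUCLG2 and FH were not called with library totals.

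The malate dehydrogenases were both called lower. MDH2, the mitochondrial form that closes the cycle, had 78.6 CPM in NPC and 303 CPM in hESC, 3.85-fold lower (3.66 to 4.05). MDH1, the cytosolic form of the malate-aspartate shuttle, had 83.6 CPM in NPC and 229 CPM in hESC, 2.74-fold lower (2.60 to 2.89). Of the malic enzymes, which turn malate into pyruvate, the cytosolic ME1 had 12.5 CPM in NPC and 23.6 CPM in hESC, and the mitochondrial ME2 had 87.3 CPM in NPC and 158 CPM in hESC. Neither malic enzyme was called, at 1.89-fold (1.63 to 2.19) and 1.81-fold (1.72 to 1.92) lower, and their log2 ratios differed by -0.06 (-0.28 to 0.16). ACO1, the cytosolic aconitase that also serves as an iron-sensing RNA-binding protein, had 43.2 CPM in NPC and 82.5 CPM in hESC and was not called.

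Over the 19 pairs compared, in 10 the near bound of the gap was 2-fold or more. Several of these pairs share a gene, and the pairs were chosen with earlier results known. The share of pairs of other genes past this bound was not computed, so the count is a description of the listed pairs. The gap within a pair does not depend on library scaling, since both genes are read in the same libraries. The pairs past this bound were the glucose transporters, PFKP against PFKL and PFKM, the enolases, the lactate dehydrogenases, PDK2 against PDK1 and PDK3, IDH2 against IDH1 and IDH3A, and IDH3A against IDH3G. ALDOC was further down than ALDOA by 2.03-fold (1.72 to 2.40) and MDH2 further down than MDH1 by 1.41-fold (1.31 to 1.51), neither past the bound.

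**Figure D4:**
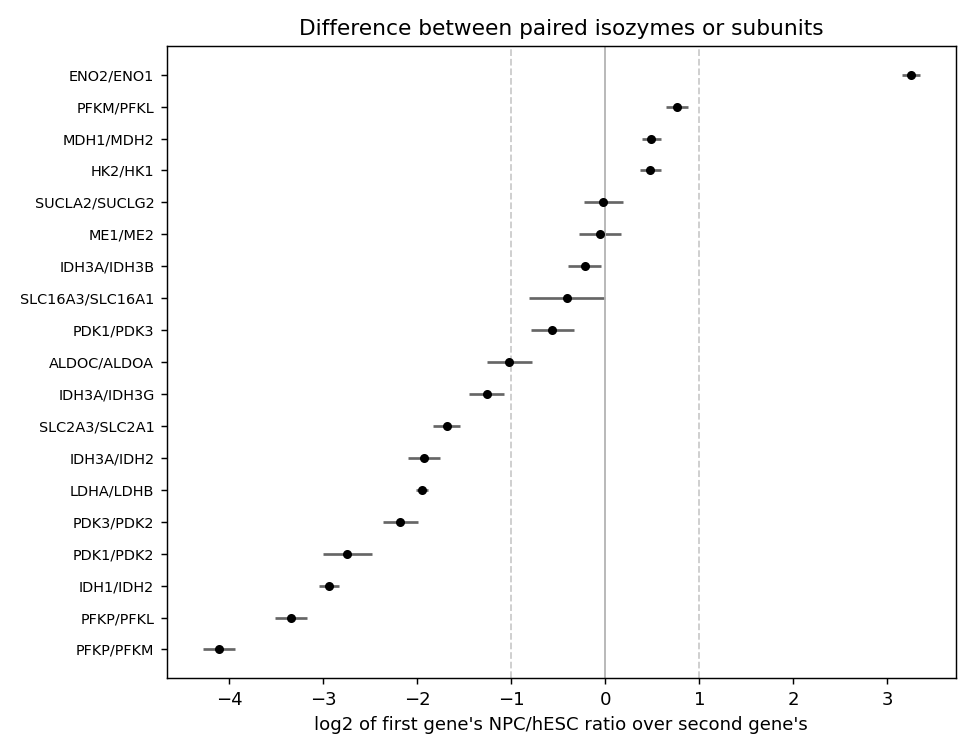
Log2 of the first gene's NPC over hESC ratio divided by the second gene's, for 19 isozyme or subunit pairs, with 95% counting intervals (bars); dashed lines mark a 2-fold gap. PFKP/PFKM is lowest at -4.11 and ENO2/ENO1 highest at 3.25, and SUCLA2/SUCLG2 and ME1/ME2 have intervals that include 0.

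Further genes were listed with the pathways, some of them, such as GPD2 and PGAM5, not enzymes of the pathway steps. They are to be read against the 19.8% lower and 19.6% higher among all measured genes. Of 18 measured further glycolysis genes 4 were lower (22.2%, near that share) and 1 was higher (5.56%). Their median log2 ratio was -0.92. The mitochondrial glycerol phosphate dehydrogenase gene GPD2 was 5.45-fold lower (4.93 to 6.03) and the phosphatase gene PGAM5 5.01-fold lower (4.57 to 5.51). The glucose transporter gene SLC2A12 was 3.11-fold higher (2.56 to 3.83), with 21.4 CPM in NPC and 6.85 CPM in hESC. Among 9 measured further genes of pyruvate entry, 2 were higher and 2 lower (22.2% each way, near the shares over all genes). PDK4, the fasting-induced kinase, had 282 reads in NPC and 4 in hESC, a ratio of 40.1 (17.4 to 166), and passed the filter in NPC alone. PDP1, the phosphatase that reactivates pyruvate dehydrogenase, was 3.35-fold higher (3.02 to 3.73) with 82.1 CPM in NPC and 24.5 CPM in hESC. PCK2, the mitochondrial carboxykinase gene, was 6.35-fold lower (5.53 to 7.33) and PDHX, which anchors a pyruvate dehydrogenase subunit, 3.27-fold lower (2.96 to 3.61).

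Of 7 measured further pentose phosphate genes, 5 were lower (71.4%) and 1 was higher (14.3%), against 19.8% lower and 19.6% higher over all genes. PGM1, phosphoglucomutase, was 6.35-fold lower (5.76 to 7.01) and PRPS1, which uses ribose phosphate for nucleotide synthesis, 3.78-fold lower (3.60 to 3.97). H6PD, the endoplasmic reticulum enzyme that makes NADPH, was 4.80-fold higher (4.16 to 5.58), with 58.1 CPM in NPC and 12.1 CPM in hESC. Of 20 measured further TCA genes, 7 were lower (35.0%) and 1 was higher (5.0%). Their median log2 ratio was -0.84. ACLY, which splits exported citrate to acetyl-CoA for lipid synthesis, had 258 CPM in NPC and 1172 CPM in hESC, 4.55-fold lower (4.43 to 4.68). GOT2, the mitochondrial aspartate transaminase of the malate-aspartate shuttle, was 3.99-fold lower (3.79 to 4.20). MDH1B was 2.96-fold higher (2.22 to 4.07), with 9.45 CPM in NPC and 3.16 CPM in hESC, and passed the filter in NPC alone.

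Hypoxia-responsive genes outside these pathways and proliferation genes were found in both directions. Of 15 measured hypoxia-responsive genes, 6 were lower (40%) and 3 higher (20%), against 19.8% lower and 19.6% higher over all genes. Their median log2 ratio was 0.16. Of the 15 genes, 11 reached the filter in both libraries, while STC2, EGLN3 and LOX did so in 1 library alone. STC2 had 2.79 CPM in NPC and 49.5 CPM in hESC, 17.6-fold lower (14.0 to 22.7). EGLN3, an oxygen-sensing hydroxylase, had 2.39 CPM in NPC and 23.5 CPM in hESC, 9.76-fold lower (7.55 to 13.0). LOX, lysyl oxidase, was 2.97-fold higher (2.27 to 3.97) and the mitophagy receptor gene BNIP3L 2.25-fold higher (2.11 to 2.41). Of 9 proliferation markers, 4 were lower (44.4%) and 1 was higher (11.1%). CCNE1 was 12.6-fold lower (10.9 to 14.7), MCM5 6.85-fold lower (6.39 to 7.34) and CCND1 2.66-fold higher (2.52 to 2.81). The summed level of the 9 markers was 2226 CPM in NPC and 2391 CPM in hESC. Much of it came from MKI67 (633 CPM in NPC, 415 in hESC) and TOP2A (933 CPM in NPC, 728 in hESC), neither of them called. Whether these lists have a part in the differences of the pathway genes was not tested.

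Over all measured genes the ratio had a trend with transcript length, which was removed as an alternative. The glycolysis genes had a median longest transcript of 3016 bases and the pentose phosphate genes of 1866 bases, against 3779 bases for all measured genes. With the trend of the ratio with length removed, the median log2 ratio was -2.27 for glycolysis, -1.04 for the TCA group, -1.18 for pyruvate entry and -0.74 for the pentose phosphate group, and 28 of 51 genes were lower. Over the 12831 measured genes with a transcript length, the median was then -0.08, with 19.4% lower and 18.7% higher. LDHB, RPE, TALDO1, SUCLG2, FH and MDH1 were then not called, while PDK3, ACO1 and ME2 were called lower.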

How the data were processed

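RNA was measured in 1 library of H9-derived NPC and 1 library of undifferentiated H9 hESC. Per the labels' protocols, 1.3 µg of total RNA, taken up in Trizol, went into each SMARTER mRNA-Seq library. The authors deposited whole-number read counts for each gene symbol, not normalized. TopHat, edgeR and the hg19 build are named in the submitters' processing notes; no source used here states the counting tool, annotation, strand setting or treatment of reads with several matches. Overlapping genes and near-identical copies are therefore uncertain, and 21 of the 51 genes have annotated pseudogenes.

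For a symbol on several rows the row with most reads was kept. TMM factors (edgeR 4.0.16, R 4.3.3) were 1.13 for NPC and 0.884 for hESC. The ratio, NPC over hESC, had 0.5 added to each count, with an exact 95% Clopper-Pearson counting interval. A gene at 5 CPM rested on 136 reads in NPC and 86.9 in hESC. The gap within a pair of isozymes is the odds ratio of their reads with a log-normal 95% counting interval. Reads had no molecular identifiers, so these intervals cover counting of reads only, neither of molecules nor of cultures. Levels per length used the longest principal transcript in GENCODE 29, which is on another build, so no coordinates were joined. Promoters are from RefSeq (GRCh38.p14). The calling code was tested on simulated data. Python 3.11.15, numpy 2.4.6, pandas 2.3.3, scipy 1.17.1 and statsmodels 0.14.6 were used.

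The genes, lists, pairs and rules were chosen with earlier results of these data known. All 51 genes are named, with up to 2 higher and 2 lower genes of each further list and some of the markers. Alternatives were library totals, DESeq2 1.42.0 size factors, upper-quartile factors, TMM without mitochondrial and ribosomal protein genes, filters of 1 and 20 CPM or none, a 4-fold bound, the point ratio, summed rows and removal of the length trend (lowess, fraction 0.5). The longest transcript as length for isozyme shares was added after seeing the data.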

Additional observations from a re-analysis of the deposited data

How the results depend on the processing

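No paired analysis was possible because each group has 1 library, and no library could be left out. No called gene changed sign under any alternative run. The number called lower was 31, and 28 to 34 under all alternatives except library totals (23) and a 4-fold bound (14). Among all genes measured under each setting, 19.8% were lower in the main analysis, 13.2% with library totals and 7.26% at 4-fold. Under the other alternatives this share was 13.8% to 23.6%. At 4-fold, glycolysis had 12 of 21 genes lower, pyruvate entry 0 of 7, pentose phosphate 1 of 6 and the TCA group 1 of 17. These are to be read against the 7.26% over all measured genes. With library totals the pentose phosphate group had 1 of 6 and the TCA group 3 of 17 lower, against 13.2%. The median log2 ratio with library totals was -0.97 over the 51 genes and -0.58 for the TCA group, against 0.31 over all measured genes. The point ratio gave 5 lower and 1 higher of the 7 pyruvate entry genes, against 23.6% lower and 23.5% higher over all measured genes. With the length trend removed, the pentose phosphate group had 1 lower gene and pyruvate entry 1 higher gene, PDK2. Over all measured genes with a transcript length, 19.4% were then lower and 18.7% higher. PDK2 also was the 1 higher gene of the 51 with library totals and with upper-quartile factors. Of all measured genes, 27.0% and 20.1% were higher under these 2 settings. PFKL, IDH3G and SUCLG1, none of them called, had log2 ratios above 0 with library totals, and so had IDH3G and SUCLG1 with the length trend removed. The count of pairs past 2-fold was 10 with the length trend removed and with summed rows. With the longest transcript as length, PFKL was 28.6% of phosphofructokinase in NPC, against 42.8% with the principal transcript, and 17.5% against 29.1% in hESC. The lengths of the pyruvate dehydrogenase kinase transcripts differ widely in the annotation, and their shares are not given. Reads limit SLC16A3, ALDOC and PDK1 most, all under 300 reads in NPC.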
